A study of Homo sapiens with 6 samples.

Results

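The 49 genes described here act in mitosis and at the kinetochore, and comprise the cyclins and kinases of mitotic entry, the spindle checkpoint, kinetochore subunits, kinesins, spindle and cytokinesis factors, condensins and the machinery that separates sister chromatids. They were taken by name from the 24526 genes of the count table, and 48 of them were among the 16297 genes with enough counts to be tested. NUSAP1 was not. RNA was sequenced from WM266.4 cells, an established human melanoma line, 48 h after transfection. The control group (neg.si, 3 cultures) received Silencer Select Negative Control No. 2, and the silenced group (RIPK4.si, 3 cultures) received a single Silencer Select siRNA specific for RIPK4, a serine/threonine kinase. All cultures were therefore transfected with an siRNA, and the comparison rests on a single RIPK4 siRNA in a single cell line. The question was how the transcripts of cell division genes differed after RIPK4 silencing.

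Each library held between 28464057 and 31688095 counted read pairs, of which the 49 genes took 0.407 to 0.496%. Levels are given as CPM, counts per 1000000 of the TMM-adjusted library size, and differences as log2 fold changes of RIPK4.si over neg.si, with 95% intervals in parentheses. RIPK4 itself was at 85.8, 76.5 and 54.7 CPM in neg.si and 19.9, 16.7 and 21.5 CPM in RIPK4.si, so the groups did not overlap. Its log2 fold change was -1.90 (-2.36 to -1.44), with an edgeR adjusted p = 0.0102, which became 0.106 without neg.si replicate 2 and 0.0622 to 0.094 when RIPK4.si replicate 1, 2 or 3 was left out. The melanocyte lineage markers were present in all libraries, with TYR at 869.6 to 1446 CPM, MITF at 291 to 396 CPM and PMEL at 104 to 312 CPM. Of the 8 lineage markers, 3 had a log2 fold change above 0 and 5 below. PMEL was called lower in RIPK4.si (edgeR adjusted p = 0.0111), where edgeR called 0.767% of all genes. In 3 markers all RIPK4.si libraries were below all neg.si libraries, against 9.4% of all genes. Among these, DCT and TYR did not pass edgeR's test (log2 fold changes -0.73 and -0.57). Both were called by DESeq2, which called 2.91% of the genes it adjusted. S100B (log2 fold change -0.48) and TYRP1 (0.36) overlapped between groups. The part of these markers in the results below was not tested. Of the fibroblast, keratinocyte, leukocyte and endothelial markers, none was above 2.58 CPM. The neg.si replicates 1 and 3 stood apart from each other by the GC content of genes. The rank correlation with GC content was taken across genes, for a library's deviation from each gene's mean over all libraries. It was 0.55 in neg.si replicate 1 and -0.55 in replicate 3, and from -0.08 to 0.16 in the other libraries.

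Transcripts of mitotic genes are kept low in resting cells and rise as cells pass through the second gap phase. In resting cells the DREAM complex represses them, and in dividing cells B-MYB and FOXM1 activate them together with the MuvB core. MuvB reaches many of these promoters through a short element named the CHR, often placed near a CCAAT box that is bound by NF-Y. In a tumour cell line the summed level of such genes tends to follow how many cells are dividing, and fewer cells in mitosis and less RNA per cell cannot be told apart in bulk RNA.

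The promoters of the set carried this shared sequence feature. Promoters from 250 bases before to 50 bases after the start were taken from RefSeq (GRCh38.p14), where 41 of the 49 genes matched with 52 promoters. The genes without a match were AURKA, BUB3, FOXM1, HMGB2, RACGAP1, TPX2, TTK and UBE2C. The letters TTTGAA or TTTAAA, searched on both strands, were in 41 of the 52 promoters (78.8%), against 24.0% of all 35116 promoters of the same length and 18% of those of protein-coding genes in the count table. Starting 1 to 60 bases before the start, they were in 26 promoters (50%), against 5.49% of all promoters. The letters CCAAT, also on both strands, were in 40 promoters (76.9%), against 34.6% of all, and the match may share 1 base with a CHR match. Among genes with a promoter, 36 of 41 had CHR letters, and AURKB, BUB1, CCNA2, SGO1 and SPC24 had none in this window. Such a match is a description of letters and not a measured binding site. The windows below show 6 examples, chosen from the genes described further on that have a CHR match 1 to 60 bases before the start, with the CHR letters in capitals. CDK1, PLK1, CENPA and MKI67 have more than 1 match in the promoter, and the match nearest to and before the start is shown. In the order printed they lie at chr5:69167108-69167137 (plus strand), chr10:60778453-60778482 (plus), chr16:23678848-23678877 (plus), chr2:26786026-26786055 (plus), chr1:37692481-37692510 (plus) and chr10:128126435-128126464 (minus).
CCNB1: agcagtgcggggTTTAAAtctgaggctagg
CDK1: tagcgcggtgagTTTGAAactgctcgcact
PLK1: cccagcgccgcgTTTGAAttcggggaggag
CENPA: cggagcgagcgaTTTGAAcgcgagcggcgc
CDCA8: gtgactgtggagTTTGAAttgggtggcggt
MKI67: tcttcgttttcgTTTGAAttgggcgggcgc

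Across the set, transcript levels differed little between the groups. HMGB2, a chromatin protein with DNA-bending HMG boxes, fell, no gene rose and 47 did not pass the test, so that 1 of 48 genes was called. Over all 16297 genes, 0.767% were called (0.374% higher and 0.393% lower). The median log2 fold change of the 48 genes was 0.08, with 32 above 0 and 16 below, against a median of -0.02 over all genes, of which 46.6% were above 0. At an unadjusted p under 0.05 in edgeR, HMGB2 and TTK passed (4.17%), against 10.8% of all genes. This count was 6 (12.5%, against 13.5% of all genes) when neg.si replicate 1 was left out, 4 (8.33%, against 14.3%) when neg.si replicate 3 was, and 5 (10.4%, against 15.9%) with the GC trend of each library removed. The plot of each gene's change shows most estimates between the dashed 1.5-fold lines.

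**Figure D1:**
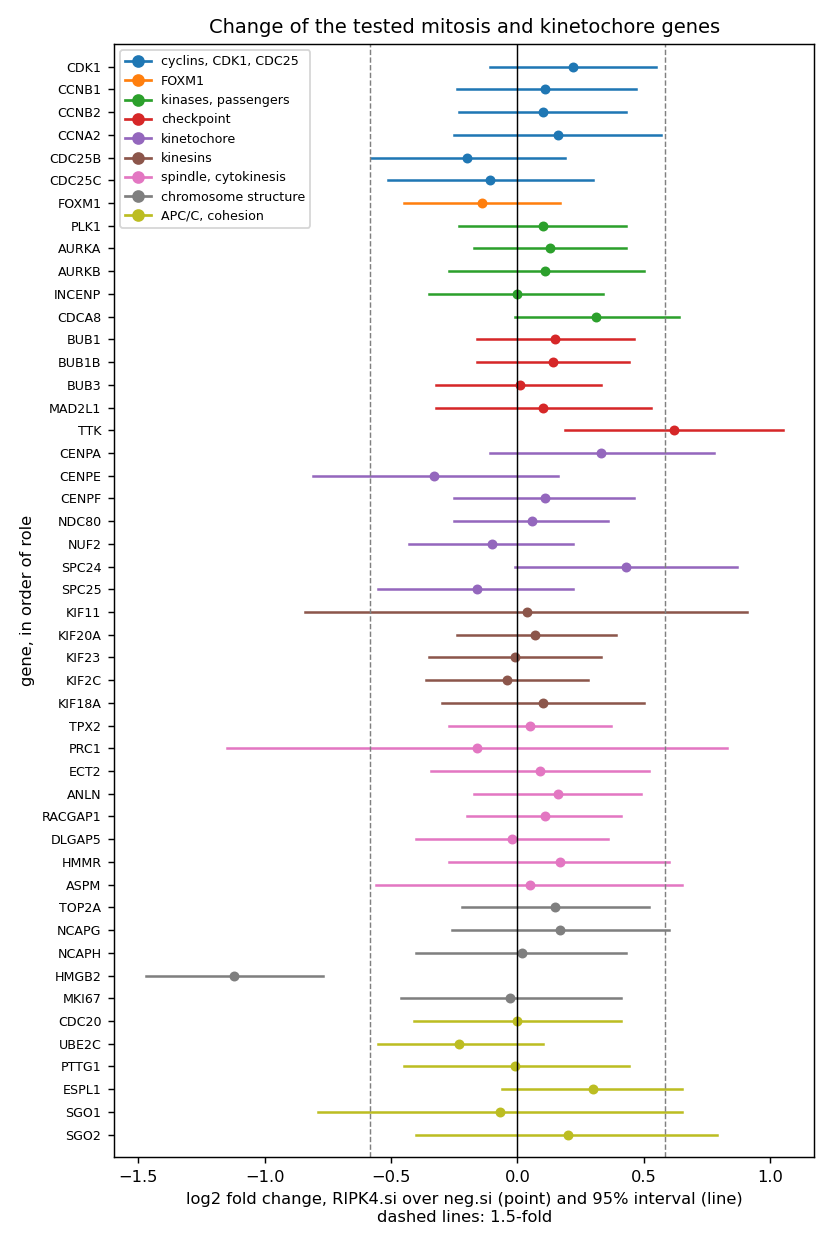
Log2 fold change of RIPK4.si over neg.si (x axis) for each of the 48 tested genes (y axis, in order of role), with the point as the edgeR estimate, the line as its 95% interval, the colour as the role and the dashed lines at 1.5-fold. HMGB2 lay apart at -1.12, and TTK had the highest estimate at 0.62.

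The intervals bound what could have been missed. For 34 of the 48 genes (70.8%) the 95% interval of the change lay within 1.5-fold in either direction, against 29.4% of all genes. This count was chosen after the data were seen, and it fell to 17 when neg.si replicate 2 was left out, and to 22 and 15 when RIPK4.si replicates 1 and 3 were. The 14 genes whose interval reached further were HMGB2, TTK, SPC24, CDCA8, ESPL1, CENPA, CENPE, NCAPG, HMMR, SGO2, ASPM, KIF11, SGO1 and PRC1. For these, apart from HMGB2, a change of more than 1.5-fold is not shown to be absent. The median standard error of the log2 fold change was 0.166 in the set and 0.225 over all genes. The summed level of the 49 genes was 4162, 4364 and 4691 CPM for neg.si (mean 4406 ± 267, SD, n = 3) and 4487, 4688 and 4393 CPM in RIPK4.si (4523 ± 151, n = 3). These sums overlapped between the groups.

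**Figure D2:**
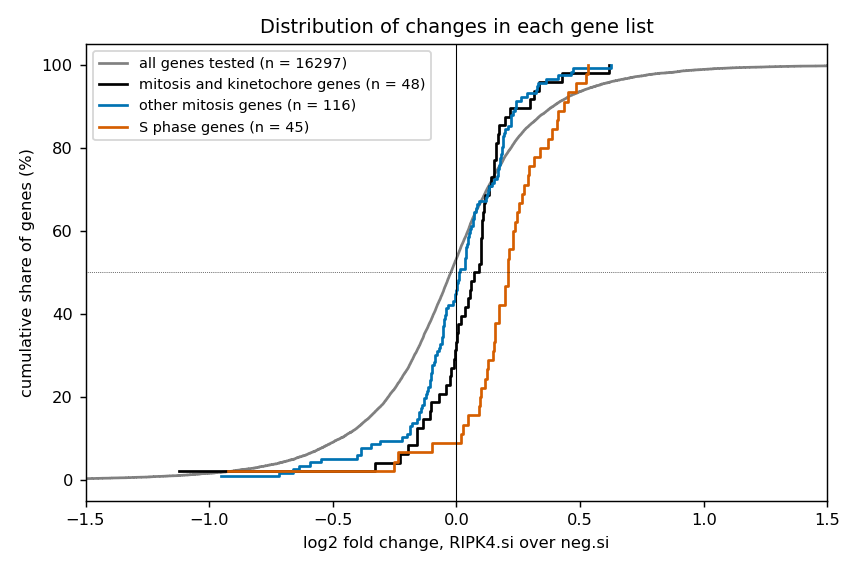
Cumulative share of genes (y axis, %) with a log2 fold change of RIPK4.si over neg.si up to the value on the x axis, for all genes tested and for 3 gene lists. The curve of the mitosis and kinetochore genes (median 0.08) is steeper than that of all genes (median -0.02), and the curve of the S phase genes (median 0.21) lies to its right.

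In 11 of the 48 genes the 3 libraries of each group did not overlap, against 17.6% of all genes. The RIPK4.si libraries were the higher ones for 8 of them (CDK1, AURKA, CDCA8, BUB1, BUB1B, TTK, SPC24 and ESPL1), where 8.23% of all genes were placed so, and the lower ones for FOXM1, HMGB2 and UBE2C, where 9.4% of all genes were. With 3 libraries against 3, the smallest p of an exact two-sided permutation test is 0.1, which is the value for each of these 11 genes.

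HMGB2 (chr4:173331376-173334432 on GRCh38, minus strand) was at 196, 162 and 151 CPM in neg.si and at 78.1, 83.6 and 72.4 CPM in RIPK4.si. Every RIPK4.si library was below every neg.si library. Mean levels were 169.7 ± 23.7 CPM for neg.si and 78.0 ± 5.59 CPM for RIPK4.si (SD, n = 3 each). The log2 fold change was -1.12 (-1.47 to -0.77, SE 0.157), a level 46% of that in neg.si, with an edgeR adjusted p = 0.0281. The call did not hold without neg.si replicate 2 (edgeR adjusted p = 0.191) or without RIPK4.si replicates 1, 2 or 3 (0.146, 0.1 and 0.214), although the log2 fold change stayed between -1.20 and -0.99. Without neg.si replicate 1 or 3, the libraries that stood apart by GC content, the edgeR adjusted p was 0.041 and 0.0047, and DESeq2, which called HMGB2 alone of the set and 2.91% of the 15015 genes it adjusted, gave 2.69e-06. Over all alternatives the adjusted p ranged from 2.69e-06 to 0.214. Its paralogs HMGB1 and HMGB3, chosen after their values were seen, were not called. HMGB1 was at 515, 406 and 473 CPM in neg.si and 336, 363 and 348 CPM in RIPK4.si (log2 fold change -0.41, edgeR adjusted p = 0.337). HMGB3 was at 43.4 to 49.2 CPM in neg.si and 44.1 to 44.9 CPM in RIPK4.si, with a log2 fold change of -0.04. How reads shared by paralogs or pseudogenes were counted is not given in the sources used here.

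HMGB2 was also the gene of the set with a particular 7-base sequence in its 3′ UTR, which many genes outside the set hold too. The heptamer ACAGCTT, taken from an earlier result on these same data and so no independent evidence, was searched on the transcript strand of 3′ UTRs of canonical transcripts. It was present in 1 of the 49 genes (2.04%), namely HMGB2, and in 1920 of 12973 tested protein-coding genes (14.8%), whose median log2 fold change was -0.11 against -0.00 without it. It was also in HMGB1, in the lineage marker MITF (log2 fold change 0.04), in 18 of the 116 further mitosis genes (15.5%) described below, among them STAG2, ANAPC16 and SMC2 (log2 fold change 0.36), and in 5 of the 45 S phase genes (11.1%), among them PRIM2. The median log2 fold change was -0.16 with it and 0.04 without it in the further mitosis genes, and 0.16 with it and 0.21 without it in the S phase genes. The median 3′ UTR was 720 bases long in the set and 1326 bases in the tested protein-coding genes. The match began at base 211 of the 704-base 3′ UTR of HMGB2. The sequences of the siRNAs were not used here, and the part of this match in the lower HMGB2 level was not tested. The site, at chr4:173331852-173331880 (GRCh38, minus strand), is printed with the heptamer in capitals.
HMGB2: agttagattttACAGCTTctgatgttgaa

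**Figure D3:**
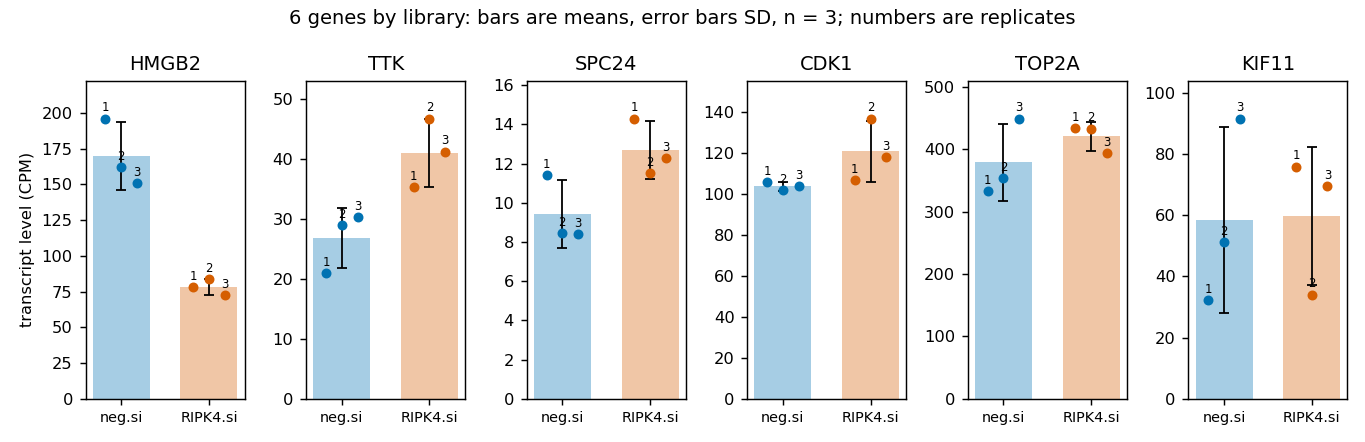
Level in CPM (y axis, from 0) of 6 genes in neg.si and RIPK4.si, with bars for means, error bars for the SD (n = 3) and numbered points for the libraries. HMGB2 fell from a mean of 169.7 to 78.0 CPM, the TTK libraries did not overlap without passing the test, and the KIF11 libraries ranged from 32.2 to 91.5 CPM within neg.si.

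Among the 6 cyclin and CDK genes, 4 had a log2 fold change above 0 and 2 below, with a median of 0.11 and a range of -0.20 to 0.22, and none was called. CDK1, the kinase that drives entry into mitosis, was at 106, 102 and 104 CPM in neg.si and 107, 137 and 118 CPM in RIPK4.si. All RIPK4.si libraries were above all neg.si libraries, with about 1 CPM between the nearest of them, and the log2 fold change was 0.22 (-0.11 to 0.55, edgeR adjusted p = 0.709). CCNB1, the cyclin B1 that activates CDK1, was at 126, 128 and 119 CPM in neg.si and 123, 159.7 and 120.4 CPM in RIPK4.si. RIPK4.si replicate 2 was high, and the other libraries lay within the neg.si range (log2 fold change 0.11, -0.24 to 0.47). CDC25C, a phosphatase that activates CDK1, had 20.1, 15.5 and 14.9 CPM in neg.si and 15, 17.3 and 14.6 CPM in RIPK4.si. Its high value was neg.si replicate 1, and its log2 fold change was -0.11 (-0.51 to 0.30). The cyclins CCNB2 and CCNA2 had log2 fold changes of 0.10 and 0.16 and the phosphatase CDC25B of -0.20, each with overlapping groups. All 6 intervals in this group lay within 1.5-fold.

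FOXM1, the transcription factor that activates many genes of mitosis, was at 91.0, 102 and 87.9 CPM in neg.si and 82.9, 87.6 and 85.5 CPM in RIPK4.si. The groups did not overlap, but the nearest libraries differed by less than 1 CPM. The log2 fold change was -0.14 (-0.45 to 0.17), with an edgeR adjusted p = 0.847. Of its exon length, 15.9% is shared with ITFG2 on the opposite strand, which an unstranded count cannot separate.

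The 5 mitotic kinases and chromosomal passenger genes, of which 4 had a positive log2 fold change, had a median of 0.11 and none was called. PLK1, a kinase of centrosome maturation and mitotic progression, was at 44.9, 41.9 and 37.2 CPM in neg.si and 43.3, 46.0 and 43.5 CPM in RIPK4.si, with overlapping groups (log2 fold change 0.10, -0.23 to 0.43). AURKA, a kinase of the spindle poles, was at 107, 103 and 104 CPM in neg.si and 118, 117 and 108 CPM in RIPK4.si. The AURKA groups did not overlap, with a log2 fold change of 0.13 (-0.17 to 0.43, edgeR adjusted p = 0.847). AURKB, the kinase of the chromosomal passenger complex, was at 45.9, 39.7 and 32.0 CPM in neg.si and 45.0, 38.9 and 43.5 CPM in RIPK4.si. Its RIPK4.si libraries lay inside the neg.si range. INCENP, the scaffold of that complex, had 58.9, 58.9 and 55 CPM in neg.si and 62.1, 48.9 and 61.6 CPM in RIPK4.si, and its means of 57.6 and 57.5 CPM were nearly equal. CDCA8, the borealin subunit, was at 46.2, 43.6 and 45.2 CPM in neg.si and 54.6, 62.2 and 51.1 CPM in RIPK4.si. Every RIPK4.si library was above every neg.si library for CDCA8, with a log2 fold change of 0.31 (-0.01 to 0.64, edgeR adjusted p = 0.486).

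All 5 spindle checkpoint genes had a log2 fold change above 0, with a median of 0.14 and a range of 0.01 to 0.62, and none passed the test. In TTK, BUB1 and BUB1B the groups did not overlap. TTK (chr6:80003887-80042527 on GRCh38, plus strand), the MPS1 kinase that starts checkpoint signalling at unattached kinetochores, was at 21.0, 29.0 and 30.3 CPM in neg.si and 35.3, 46.7 and 41.2 CPM in RIPK4.si. Its lowest RIPK4.si library was above its highest neg.si library, and the means were 26.8 ± 5.04 and 41.0 ± 5.68 CPM (SD, n = 3 each). The log2 fold change was 0.62 (0.19 to 1.05, SE 0.191), with an edgeR adjusted p = 0.229 (unadjusted p = 0.00984). The adjusted p was 0.0911 in DESeq2, 0.0544 with each library's GC trend removed and 0.0344 with the trend removed and the replicate number as a block, and it ranged from 0.0344 to 0.669 over all alternatives. With the GC trend removed, 3.27% of all genes were called, and with the trend removed and the block, where TTK passed, 434 of the 16297 genes were.

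BUB1, a kinase that recruits checkpoint proteins, was at 102, 119.6 and 114 CPM in neg.si and 123, 127 and 122 CPM in RIPK4.si, with a log2 fold change of 0.15 (-0.16 to 0.46). BUB1B, the BUBR1 subunit of the mitotic checkpoint complex, was at 67.2 to 74.9 CPM in neg.si and 76.5 to 79.4 CPM in RIPK4.si. Both had RIPK4.si libraries above all neg.si libraries and intervals within 1.5-fold. MAD2L1, the MAD2 protein that inhibits CDC20, was at 53.1, 56.4 and 62.0 CPM in neg.si and 48.7, 77.1 and 58.5 CPM in RIPK4.si, where replicate 2 was the highest and replicate 1 the lowest of all 6 libraries. BUB3, the WD40 partner of BUB1, was at 97.0, 107 and 116 CPM in neg.si and 99.2, 112 and 110.2 CPM in RIPK4.si, with a mean of 107 CPM in each group.

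Of the 7 kinetochore and centromere genes, 4 had a log2 fold change above 0 and 3 below, with a median of 0.06, a range from -0.33 (CENPE) to 0.43 (SPC24) and no call. CENPA, the histone H3 variant that marks centromeres, was at 19.8, 13.8 and 15.1 CPM in neg.si and 22.1, 22.3 and 17.0 CPM in RIPK4.si. The groups overlapped through neg.si replicate 1 (log2 fold change 0.33, -0.11 to 0.78, edgeR adjusted p = 0.637). The 4 subunits of the NDC80 complex, which binds microtubules, did not share a direction. NDC80 was at 64.0, 67.4 and 64.0 CPM in neg.si and 67.8, 72.1 and 63.5 CPM in RIPK4.si, with a log2 fold change of 0.06 (-0.25 to 0.36). SPC24 was at 11.4, 8.46 and 8.41 CPM in neg.si and 14.3, 11.5 and 12.3 CPM in RIPK4.si, so that the groups were separated by the gap between 11.4 and 11.5 CPM. Its log2 fold change was 0.43 (-0.01 to 0.87, edgeR adjusted p = 0.473). CENPF, a large coiled-coil protein of the outer kinetochore, had a log2 fold change of 0.11 with overlapping groups. NUF2 and SPC25 had log2 fold changes of -0.10 and -0.16, and their libraries overlapped between groups.

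The 5 kinesins had log2 fold changes from -0.04 to 0.10, the narrowest range of the role groups with more than 1 gene, with a median of 0.04, and none of them was called or had separate groups. KIF11, the Eg5 motor that pushes spindle poles apart, was at 32.2, 51.2 and 91.5 CPM in neg.si and 75.8, 34.0 and 69.5 CPM in RIPK4.si. The groups overlapped widely, and the interval of its log2 fold change of 0.04 ran from -0.84 to 0.91. A change of more than 1.5-fold in either direction is therefore not shown to be absent. KIF23, a motor of the central spindle, was at 103, 109 and 132 CPM in neg.si and 115, 119.7 and 107 CPM in RIPK4.si. KIF18A, which dampens chromosome oscillations, was at 35.3, 45.4 and 50.8 CPM in neg.si and 41.3, 51.3 and 48.3 CPM in RIPK4.si (log2 fold change 0.10, -0.30 to 0.50). For KIF23 and KIF18A the neg.si libraries spread wider than the RIPK4.si libraries. KIF20A and KIF2C had log2 fold changes of 0.07 and -0.04.

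Of the 9 spindle and cytokinesis genes, 8 were tested, 6 of them with a positive log2 fold change, with a median of 0.07, a range of -0.16 to 0.17 and no call. ANLN, the anillin scaffold of the contractile ring, was at 283, 319 and 346 CPM in neg.si and 344, 369.6 and 345 CPM in RIPK4.si. The groups overlapped through neg.si replicate 3 (log2 fold change 0.16, -0.17 to 0.49). DLGAP5, a spindle microtubule stabilizer, had 78.9, 98.3 and 116 CPM in neg.si and 102, 94.1 and 92.6 CPM in RIPK4.si, with all RIPK4.si libraries inside the neg.si range. TPX2, ECT2, RACGAP1, HMMR and ASPM had log2 fold changes of 0.05 to 0.17.

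The tested gene with the fewest counts was PRC1, a bundler of the central spindle, with 16, 14 and 12 read pairs in neg.si and 13, 16 and 7 in RIPK4.si. NUSAP1, a microtubule-binding protein, had 2, 0 and 5 read pairs in neg.si and 1, 1 and 2 in RIPK4.si. In neg.si the mean of PRC1 was 0.454 CPM and that of NUSAP1 0.0740 CPM, and the next lowest gene of the set, SGO1, was at 7.98 CPM. In GENCODE release 44, 57.6% of the exon length of PRC1 is shared on the same strand with AC068831.7, a gene that held 155 to 214 read pairs per library, and 34.3% with PRC1-AS1 on the opposite strand. NUSAP1 shares 9.76% with OIP5 and 5.4% with OIP5-AS1. Counting ignored strand, how pairs in shared exons were treated is not given in the sources used here, and the part of these overlaps in the low counts was not tested. The log2 fold change of PRC1 was -0.16 with an interval of -1.15 to 0.83 (edgeR adjusted p = 0.962), and NUSAP1 was not tested.

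Among the 5 chromosome structure genes, HMGB2 fell and the other 4 did not pass the test. TOP2A, the topoisomerase that untangles sister chromatids, was at 333, 354 and 449 CPM in neg.si and 434, 433 and 394 CPM in RIPK4.si, with overlap through neg.si replicate 3 (log2 fold change 0.15, -0.22 to 0.52). NCAPH, a condensin subunit, was at 48.1, 44.3 and 49.0 CPM in neg.si and 56.9, 36.4 and 49.6 CPM in RIPK4.si, where the RIPK4.si libraries enclosed the neg.si range. MKI67, which coats mitotic chromosomes and is the usual marker of proliferation, was at 15.5, 17.5 and 20.7 CPM per kb of exon in neg.si and 21.2, 13.8 and 17.8 CPM per kb in RIPK4.si. Its means of 230 ± 34.1 and 226 ± 47.8 CPM (SD, n = 3 each) differed by less than the spread between libraries (log2 fold change -0.03, -0.46 to 0.41, edgeR adjusted p = 0.987). NCAPG, another condensin subunit, had a log2 fold change of 0.17, and 33.7% of its exon length is shared with LCORL on the opposite strand.

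The 6 genes of the anaphase-promoting complex and sister chromatid cohesion were evenly divided, with 3 log2 fold changes above 0 and 3 below, and none was called. CDC20, the activator of the complex in early mitosis, was at 89.8, 77.0 and 56.7 CPM in neg.si and 74.7, 77.5 and 71.5 CPM in RIPK4.si. Its means were 74.5 ± 16.7 and 74.6 ± 3.02 CPM (SD, n = 3 each). ESPL1, the separase that cleaves cohesin, was at 56.5, 48.4 and 42.2 CPM in neg.si and 57.3, 64.4 and 59.3 CPM in RIPK4.si. The ESPL1 groups did not overlap, with a log2 fold change of 0.30 (-0.06 to 0.65, edgeR adjusted p = 0.57). UBE2C, the ubiquitin-conjugating enzyme that works with the complex, had its 3 RIPK4.si libraries (55.7 to 62.0 CPM) below its neg.si libraries (63.0 to 76.3 CPM), with an edgeR adjusted p = 0.679. The protectors of cohesion SGO1 and SGO2 had log2 fold changes of -0.07 and 0.20, with intervals past 1.5-fold.

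**Figure D4:**
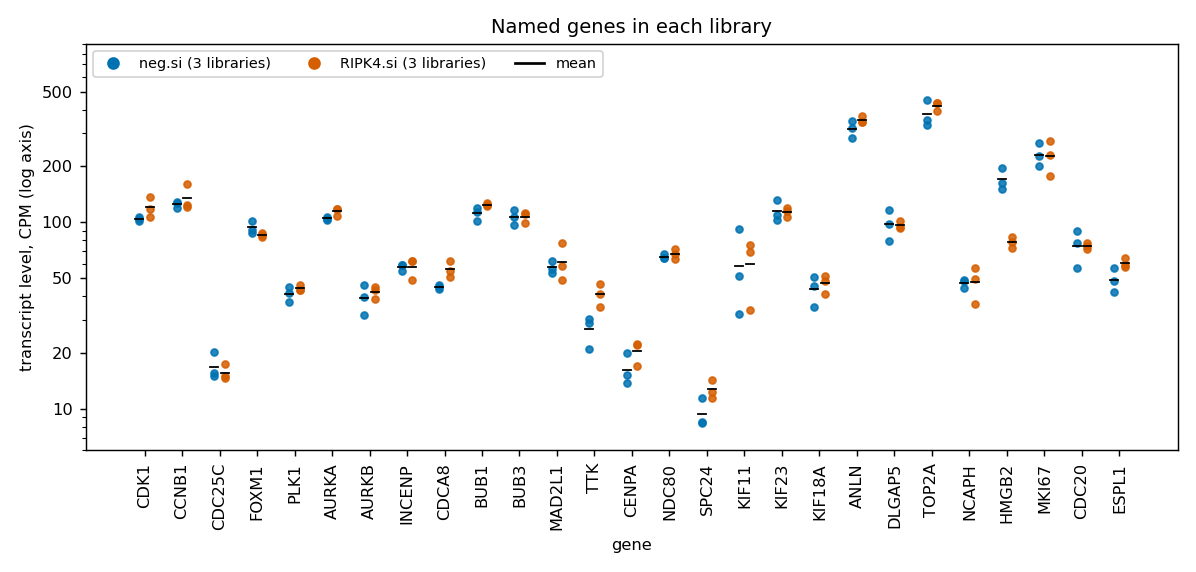
Level in CPM (y axis, log scale) of the 27 genes described by library (x axis), with points for the 3 neg.si and 3 RIPK4.si libraries and a line for each mean. HMGB2, with 151 to 196 CPM in neg.si and 72.4 to 83.6 CPM in RIPK4.si, shows the clearest gap, and most other genes overlap.

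Per length, the order of levels within the set was similar in the groups. The exon length was that of all annotated transcripts of a gene merged, so the order also depends on the annotation. In CPM per kb of exon, PTTG1 (securin, which has close pseudogene copies and is therefore uncertain) was highest with means of 124 in neg.si and 123 in RIPK4.si. HMGB2 was next in neg.si with 70.7 CPM per kb and was at rank 10 in RIPK4.si with 32.5. TPX2 (61.4 and 63.8 CPM per kb), TOP2A (59.4 and 66.0), UBE2C (54.4 and 46.4), ANLN (52.7 and 58.8) and CCNB1 (51.1 and 55.2) followed. For 41 of the 48 pairs of neighbours in the neg.si order and 40 of the 48 in the RIPK4.si order, the library ranges overlapped. Among the genes just named, PTTG1 was above its neighbour in every library of both groups, and UBE2C (43.3 to 48.2 CPM per kb) was below CCNB1 (49.5 to 65.6) in every RIPK4.si library. At the low end were CDC25C (5.05 and 4.70 CPM per kb), SPC24 (3.32 and 4.47), SGO1 (2.13 and 2.03), PRC1 (0.0821 and 0.0737) and NUSAP1 (0.0205 and 0.0123).

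Within neg.si, the genes of the set differed between libraries by their GC content. The median GC content of the longest transcript was 42.2% in the set and 47.9% over all genes tested. Across the 48 genes, the log2 ratio of neg.si replicate 3 to replicate 1 had a rank correlation with GC content of -0.80 (Pearson's r -0.73), as a description over genes that share the same 2 libraries. Over the 16239 tested genes with a known GC content it was -0.63 (r -0.61), so the trend was not particular to the set. Of 23 genes under 42% GC, 20 were higher in replicate 3 than in replicate 1, with a median log2 ratio of 0.50. Of 10 genes over 50% GC, 0 were higher, with a median log2 ratio of -0.35. The genes that differed most within neg.si, chosen after their values were seen, were KIF11, SGO1, ASPM and SGO2, with highest libraries 2.84, 2.44, 2.28 and 2.19 times the lowest. CDC20, a gene of high GC content, went the other way, from 89.8 CPM in replicate 1 to 56.7 CPM in replicate 3. The log2 fold change between groups had a rank correlation with GC content of -0.13 (r 0.02) across the same genes. With the GC trend of each library removed, the median SD of log2 levels of the set went from 0.198 to 0.125 within neg.si and from 0.112 to 0.148 within RIPK4.si. Over all genes tested it went from 0.299 to 0.21 within neg.si and from 0.212 to 0.209 within RIPK4.si. The number of the 48 genes with intervals within 1.5-fold went from 34 to 39. HMGB2 remained called (edgeR adjusted p = 0.0247).

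**Figure D5:**
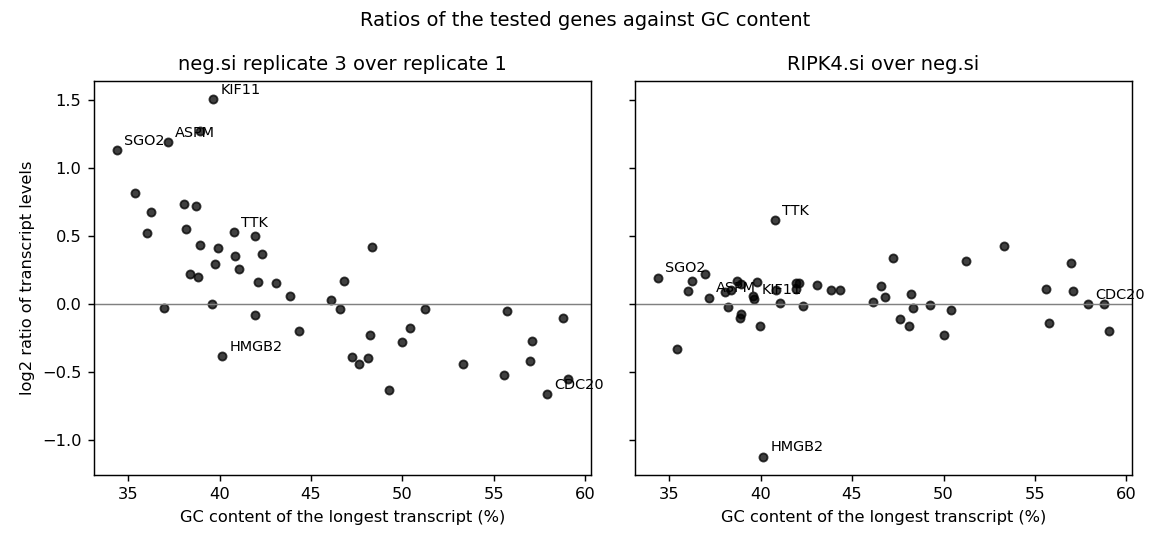
GC content of the longest transcript (x axis, %) against the log2 ratio of neg.si replicate 3 over replicate 1 (left) and of RIPK4.si over neg.si (right), with a point for each of the 48 tested genes and 6 genes named. The ratio within neg.si falls with GC content (rank correlation -0.80), and for the ratio between groups the rank correlation is -0.13.

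A further 116 genes of mitosis, among them the other subunits of the anaphase-promoting complex, cohesin, condensin, the inner kinetochore and the DREAM and RB proteins, were all tested. In edgeR 0 were called, where 0.767% of all genes were, and DESeq2 called 2, where it called 2.91% of all genes. At an unadjusted p under 0.05 in edgeR there were 9 (3 higher and 6 lower), or 7.76% against 10.8% of all genes. With neg.si replicate 1 or 3 left out there were 17 (14.7%, against 13.5% and 14.3% of all genes), and with the GC trend removed 15 (12.9%, against 15.9%). Their median log2 fold change was 0.01, with 63 above 0 and 53 below. The lowest p was that of STAG2, a cohesin subunit, at 156, 195 and 242 CPM in neg.si and 91.0, 112 and 104 CPM in RIPK4.si. Its groups did not overlap, with a log2 fold change of -0.95 (SE 0.187, edgeR adjusted p = 0.0629). ANAPC16, a subunit of the anaphase-promoting complex, was at 48.3, 46.2 and 51.3 CPM in neg.si and 31.5, 30.8 and 31.5 CPM in RIPK4.si (log2 fold change -0.64, edgeR adjusted p = 0.0884). STAG2 and ANAPC16 were the genes called by DESeq2. STAG2 was also called with the replicate block, with the GC trend removed, with both, and when neg.si replicate 1 or 3 was left out, and ANAPC16 with the GC trend removed, with or without the block. CDKN1A, the p21 inhibitor of cyclin-dependent kinases, named after its values were seen, was at 359, 321 and 227 CPM in neg.si and 154, 230.5 and 189.5 CPM in RIPK4.si. Its groups overlapped, with a log2 fold change of -0.66 and an edgeR adjusted p = 0.258.

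The 45 S phase genes mostly act in the phase before mitosis is prepared. They encode mainly replication factors and enzymes of nucleotide synthesis, and include E2F1, E2F2, CCNE1, CCNE2, SLBP and UHRF1. Of the 45 genes, 41 had a log2 fold change above 0 and 4 below, with a median of 0.21. In 13 all RIPK4.si libraries were above all neg.si libraries. Of all genes, 46.6% had a log2 fold change above 0 and 8.23% had RIPK4.si libraries above all neg.si libraries. In edgeR 0 were called, 3 had an unadjusted p under 0.05 (6.67%, against 10.8% of all genes), and DESeq2 called 2. The count at an unadjusted p under 0.05 in edgeR varied with the library left out and with removal of the GC trend. It was 16 (35.6%, against 13.5% of all genes) when neg.si replicate 1 was left out and 5 (11.1%, against 14.3%) when neg.si replicate 3 was. It was 2 (4.44%, against 6.88% of all genes) without neg.si replicate 2 and 2 (4.44%, against 8.73%) without RIPK4.si replicate 2. With the GC trend removed it was 13 (28.9%, against 15.9%), with the replicate block 6 (13.3%, against 10.6%) and with both 12 (26.7%, against 16.2%). Their summed level was 2672, 2419 and 2257 CPM in neg.si and 2819, 3061 and 2790 CPM in RIPK4.si, with no overlap. The difference between this list and the mitosis genes was not tested. MCM6, a subunit of the replicative helicase, was at 104, 95.2 and 93.6 CPM in neg.si and 141, 147 and 133 CPM in RIPK4.si (log2 fold change 0.52, SE 0.136, edgeR adjusted p = 0.144). PRIM2, a primase subunit, went the other way, at 20.9, 21.3 and 28.8 CPM in neg.si and 13.4, 11.6 and 12.4 CPM in RIPK4.si (log2 fold change -0.92, SE 0.183, edgeR adjusted p = 0.0639). MCM6 and PRIM2 were the genes called by DESeq2. PRIM2 was also called with the GC trend removed, with or without the replicate block, and when neg.si replicate 3 was left out.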

How the data were processed

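Poly(A) RNA from 3 neg.si and 3 RIPK4.si cultures was sequenced as paired reads on the BGISEQ-500 platform. Per the study's methods, adapters were removed with Cutadapt, reads were checked with FastQC and aligned with TopHat to GRCh38.p13, and HTSeq counted the pairs of each gene on both strands together. The authors deposited raw counts, as whole numbers of read pairs, and genes with fewer than 6 over all libraries are not in the table. The deposited signal values, which the authors made by dividing counts by DESeq2 size factors, were read but not used for results. The columns of the authors' own comparison (mean, fold change, standard error, p-value and FDR) were not used.

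The main test was that of edgeR 4.0.16, run in R 4.3.3 on the raw counts (TMM, its filter on low counts, quasi-likelihood test of condition alone, Benjamini-Hochberg adjustment over 16297 genes, threshold 0.05). The standard error was the size of the log2 fold change divided by the square root of F, and intervals used 9.33 degrees of freedom. The common biological coefficient of variation was 0.211. CPM used TMM-adjusted library sizes, exon lengths, overlaps and GC content came from GENCODE release 44, and promoters from RefSeq. The fit was tested on simulated data. No libraries were duplicates, since replicates differed by a chi-square of 16.4 to 117 per degree of freedom. Alternatives were DESeq2 1.42.0, its size factors, upper-quartile normalization, no filter, at least 10 counts in every library, a replicate block, removal of the GC trend (lowess, span 0.3), both together, and each library left out. Other calculations used Python 3.11.15, numpy 2.4.6, pandas 2.3.3, scipy 1.17.1 and matplotlib 3.10.9.

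Genes given by library were, in each of 9 role groups, those with the smallest and the largest p, every called gene and 14 usual markers of mitosis, and in the further lists the 2 with the smallest p. Other members are given by single values or ranges, and PRC1 and NUSAP1, with their counts by library, were added after their values were seen. The members and lists were chosen with earlier results of these data known. With about equal totals, depth limited only genes with few counts.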

Additional observations from a re-analysis of the deposited data

How the results depend on the processing

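The median log2 fold change of the 48 genes stayed above 0 under every alternative run and was 0.05 to 0.11 with each library left out. The number of them called was 2 with the replicate block and the GC trend removed together (HMGB2 and TTK), 0 to 1 with a library left out, and 1 otherwise. The number with intervals within 1.5-fold, chosen after seeing the data, was 15 to 33 with a library left out. It was lowest without RIPK4.si replicate 3 (15) and highest without neg.si replicate 1 (33). For RIPK4 the log2 fold change was -2.06 to -1.74 with a library left out, and it kept its call under the settings that used all libraries. Of the further mitosis genes, DESeq2 called 2, the replicate block 1 (STAG2), the GC trend removed 3 (STAG2, ANAPC16 and NCAPD3), both together 2, and the fits without a library 0 to 1. Of the S phase genes, DESeq2 called 2, the GC trend removed 1, both together 1, and the fits without a library 0 to 1. The cause of these differences was not tested. Over all genes, 125 were called in the main test, 437 by DESeq2, 533 with the GC trend removed, 434 with the block and the GC trend removed, 295 and 70 when neg.si replicates 3 and 1 were dropped, 4 when RIPK4.si replicate 2 was dropped, and 0 when neg.si replicate 2, RIPK4.si replicate 1 or RIPK4.si replicate 3 was dropped, where 1153, 1426 and 1086 genes had an unadjusted p under 0.05 in edgeR.

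The replicate numbers were not taken to pair the cultures in the main test. The paper's captions speak of independent experiments, and it does not say which cultures belonged together. The deviations of same-numbered libraries from their group means correlated at -0.24, 0.25 and 0.35, which cannot show whether the cultures were paired. Not every library correlated best with its own number, as neg.si replicate 1 correlated at 0.41 with RIPK4.si replicate 2. With the replicate block, STAG2 passed the threshold, 131 genes were called over all genes and 1 of the set, HMGB2, whose adjusted p was 0.0239.

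Among RIPK4 and the 27 members named by the rule, signs changed only for those with small log2 fold changes that no alternative called. The log2 fold change of INCENP was 0.01 with DESeq2's size factors, upper-quartile normalization, no filter or DESeq2. That of KIF23 was 0.00 with no filter, 0.01 in DESeq2, 0.03 with the GC trend removed and 0.02 with the block added. DLGAP5 was at 0.02 in both of the latter, MKI67 at 0.00 with the GC trend removed and NCAPH at -0.01 with the replicate block. With a library left out, log2 fold changes crossed 0 for CCNB1 (-0.02 to 0.19), CDC25C (-0.18 to 0.06), AURKB (-0.01 to 0.26), INCENP (-0.05 to 0.11), BUB3 (-0.04 to 0.08), MAD2L1 (-0.08 to 0.26), KIF11 (-0.24 to 0.52), KIF23 (-0.07 to 0.11), KIF18A (-0.02 to 0.22), DLGAP5 (-0.13 to 0.12), NCAPH (-0.12 to 0.19), MKI67 (-0.17 to 0.13) and CDC20 (-0.16 to 0.17). A further 333 values of single genes kept their direction and their side of the threshold. With a single siRNA, effects of RIPK4 loss and of that siRNA on other transcripts cannot be told apart.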
